A study of Mus musculus with 8 samples.

Results

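Cytosolic ribosomal protein genes were examined in mouse liver at the level of mRNA, of ribosome-protected fragments (RPFs or footprints, pieces of message covered by a translating ribosome and so spared by RNase) and of their ratio, the translation efficiency (TE). The members were all entries with a symbol of the form Rpl or Rps followed by a number, with the endings of their named paralogs, together with Rplp0, Rplp1, Rplp2 and Rpsa. This rule found 85 genes, 53 of the large and 32 of the small ribosomal subunit, among 24535 uniquely named entries of the RNA-seq tables and 25033 of the Ribo-seq tables, and all 85 were present in both assays. The livers came from C57BL/6 mice fed a diet that drew 45% of its calories from fat. Treatment began at week 8 and tissue was taken at week 25. The HF group received the diet alone and the HB group the same diet with betaine, a methyl donor, at 2% (w/v) in the drinking water, so that both groups carried the high-fat diet. The labels and the study's methods differ on how long the diet lasted. Each assay had 2 libraries per group. The labels describe pooled preparations, whereas the methods describe 2 mice picked from each group by body weight as biological repeats. Since these sources differ, the p-values measure the spread between these libraries, which may be in part technical.

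A cytosolic ribosome is built from a large and a small subunit, each a core of ribosomal RNA decorated with proteins that are, with few exceptions, encoded by single active genes. The small subunit reads the codons of the mRNA, and the large subunit joins the amino acids and guides the nascent chain through an exit tunnel. Most of these mRNAs begin with a tract of pyrimidines, the terminal oligopyrimidine (TOP) motif, through which the nutrient-sensing kinase complex mTORC1 governs their entry into polysomes. Liver is rich in ribosomes because it secretes large amounts of plasma protein. Ribosomal protein genes have also left many processed pseudogenes and near-identical copies in the genome, so that reads of one can map to another.

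RNA-seq totals recovered from the values were 11661207 and 11824128 reads in HF and 22543471 and 18082685 in HB. Ribo-seq was far shallower, with 387980 and 1056546 reads in HF and 257086 and 141890 in HB, and a median member rested on 40, 107, 35 and 13 footprint reads in these libraries. The labelled tissue was borne out by its defining genes, since the 7 hepatocyte markers summed to between 43050 and 47930 RPKM (reads scaled to gene length and library size) in RNA-seq. The Ribo-seq libraries of HB also held more small and structural RNA than those of HF: entries such as Mir122 and the small nucleolar RNAs took 69.2% and 82.7% of the summed RPKM in HB against 59.5% and 64.7% in HF, and the rRNA precursor Rn45s stood at 498 and 529 RPKM against 114 and 47.7. In RNA-seq Rn45s was lower in HB (16.5 and 94.96 against 115.1 and 167 RPKM), and the 4 tested nuclear RNA and rRNA signs were all below 0 with a median log2 fold change of -1.45. The 6 erythroid markers summed in mRNA to 738 and 2249 RPKM in HB against 675 and 523 RPKM in HF, with all 5 tested above 0 and 3 of them at an adjusted p under 0.05. Their footprint sums overlapped, at 2559 and 381 RPKM in HB against 1109 and 617 RPKM in HF. The mRNA sums of 6 Kupffer cell markers (123 and 106.0 against 98.0 and 104.8 RPKM, 5 of 6 above 0), 4 adipocyte markers (22.3 and 23.3 against 9.63 and 12.1 RPKM) and 6 stellate cell markers (70.3 and 40.3 against 30.7 and 30.9 RPKM, 2 of 4 tested above 0) were also higher in both HB libraries. Only 1 of the 4 adipocyte markers had a mean RPKM of at least 1. The 5 endothelial markers overlapped in mRNA sum (52.4 and 61.4 against 54.4 and 63.5 RPKM). In footprints the 6 Kupffer, 6 stellate and 5 endothelial markers were all below 0, as were 70.4% of all entries, with medians of -0.59, -1.11 and -1.25, and 2 endothelial markers (Stab2 and Pecam1) passed the study's thresholds. The mRNA sums of 5 cholangiocyte markers (15.7 and 25.99 against 26.2 and 31.9 RPKM), 6 lymphocyte markers (3.22 and 2.87 against 5.86 and 8.79 RPKM) and 5 neutrophil markers (3.43 and 4.47 against 8.81 and 52.8 RPKM, with Ly6g at 0 throughout) were lower in both. Only 2 cholangiocyte, 1 lymphocyte and 2 neutrophil markers had a mean RPKM of at least 1. Of the 2 cholangiocyte markers 1 was above 0 and 1 below. In footprints the neutrophil sum was 0 and 38.2 RPKM in HB against 2.80 and 12.4 RPKM in HF. The part of these differences in the results was not tested, and in whole liver fewer cells of a type and less RNA per cell cannot be told apart.

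Of the 85 members, 82 had a mean RPKM of at least 1 and were tested in all 3 measures. The exceptions were paralogs known for other tissues. Rpl10l and Rpl39l, which are best known from testis, were listed at 0 in all 8 libraries, and Rpl3l, the striated-muscle form of Rpl3, had 1, 0, 1 and 4 reads in RNA-seq and none in Ribo-seq. A count of 0 allows up to 3 reads in a library.

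The tested members were abundant mRNAs. Their median level was 278 and 323 RPKM in HF and 281 and 409.9 RPKM in HB, which lay between the 97.0th and the 97.7th percentile of all tested entries. In footprints the median was 148 and 145 RPKM in HF and 188 and 136 RPKM in HB, between the 95.1st and the 95.8th percentile. The middle of the distribution was narrow, with quartiles of 179 and 464 RPKM for mRNA in HF replicate 1, while the extremes ran from 4.18 to 1478 RPKM in that library. Together the 85 members took 1.93% (95% Wilson interval 1.92 to 1.94) and 2.15% (2.14 to 2.16) of the RNA-seq reads in HF and 1.79% (1.79 to 1.80) and 2.43% (2.43 to 2.44) in HB. The HB libraries fell on either side of the HF libraries, so that the groups overlapped. Of the Ribo-seq reads they took 1.02% (0.985 to 1.05) and 1.00% (0.985 to 1.02) in HF and 1.36% (1.32 to 1.40) and 0.994% (0.944 to 1.05) in HB. These intervals cover counting error only.

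As a share of summed RPKM, footprints of the members came to 1.18% ± 0.121 (SD, n = 2) in HF and 0.792% ± 0.400 (SD, n = 2) in HB, the opposite order to their share of reads. Short RNAs weigh more in a sum of RPKM than in a count of reads. With the small RNA entries left out of the sum, an alternative chosen after seeing the data, the shares were 3.12% and 3.09% in HF and 3.49% and 2.95% in HB. The groups then overlapped.

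**Figure D1:**
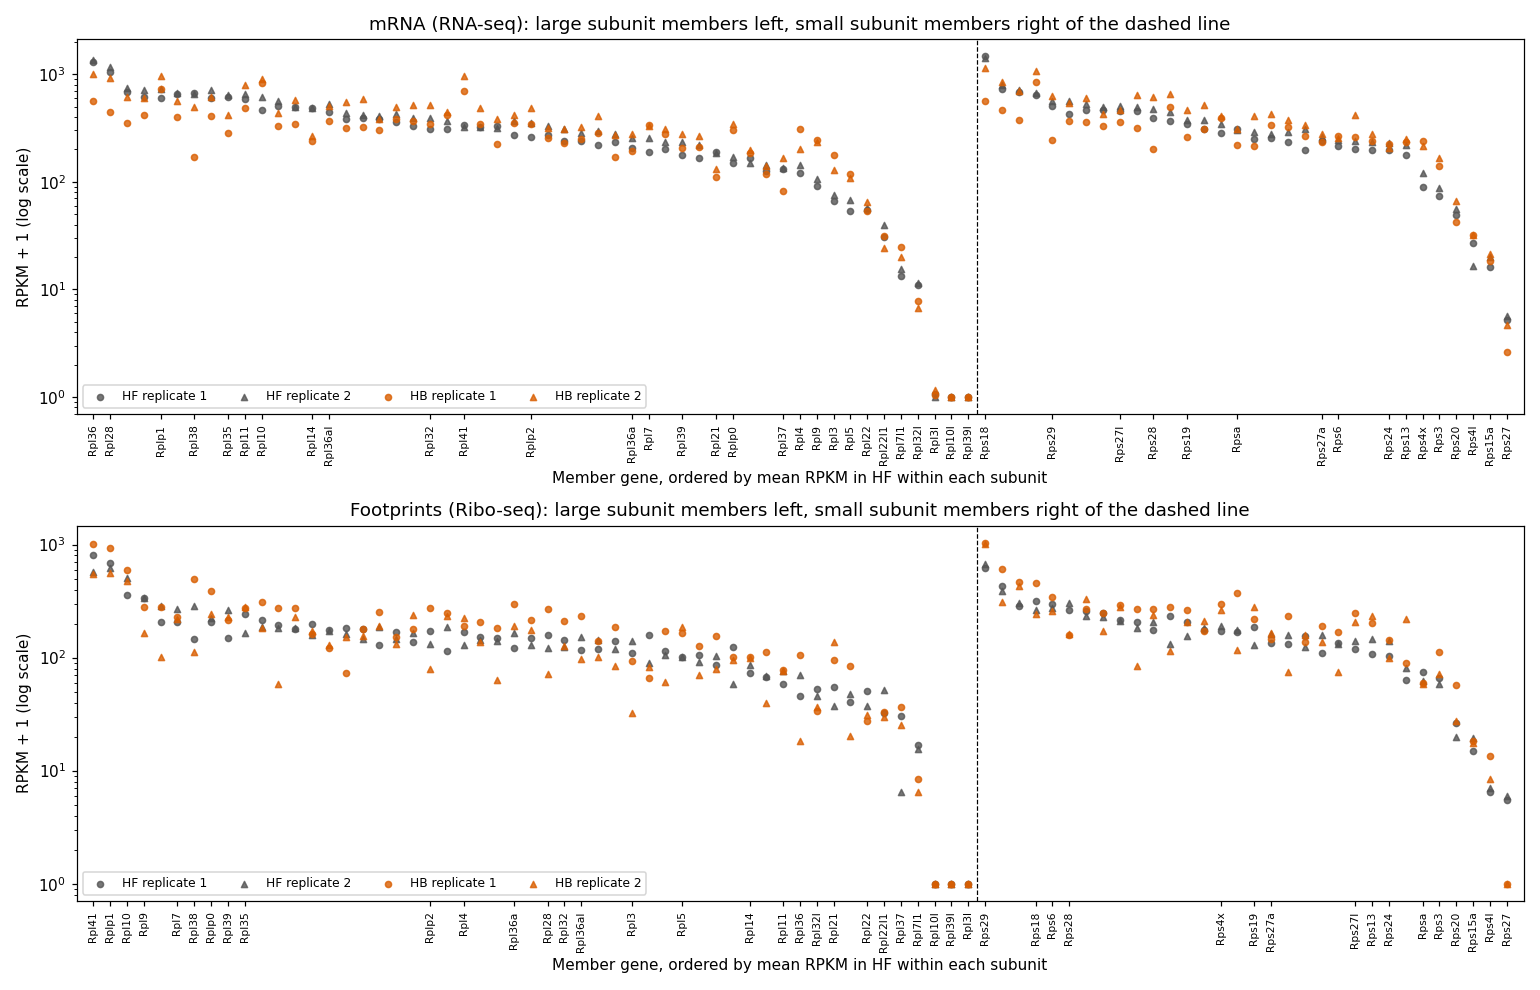
Level of each of the 85 members in each library, as RPKM + 1 on a log axis, for mRNA (top) and footprints (bottom), with grey symbols for HF, orange for HB, circles for replicate 1 and triangles for replicate 2. Large subunit members stand left of the dashed line and small subunit members right of it, members described in the text are labelled, and the lowest tested member, Rps27, reached at most 4.71 RPKM in mRNA while Rpl10l, Rpl39l and Rpl3l lay at or near 0.

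Large and small subunit members had similar mRNA levels. The median of the 50 tested large subunit members was 289 and 325 RPKM in HF and 303 and 395 RPKM in HB, and that of the 32 small subunit members was 268 and 304 RPKM in HF and 263 and 412 RPKM in HB. On the log2 scale the large subunit median lay 0.11 and 0.09 above the small subunit median in HF and 0.21 above and -0.06 below it in HB, so that its sign differed between the HB libraries. In footprints the large subunit median was the lower one in all 4 libraries, by -0.22 and -0.16 in HF and by -0.31 and -0.51 in HB.

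The most abundant member mRNAs in HF were Rps18, a protein of the small subunit head, and Rpl36 and Rpl28 of the large subunit. Rps18 stood at 1478 and 1407 RPKM in HF and at 559 and 1147 RPKM in HB. Rpl36 stood at 1311 and 1360.4 RPKM in HF and at 568 and 999.5 RPKM in HB. The HF libraries of these mRNAs lay close together, whereas HB replicate 1 lay well below HB replicate 2. Footprints ranked other members first: Rpl41, the shortest ribosomal protein, at 804 and 571 RPKM in HF, Rplp1 of the factor-recruiting stalk at 688 and 621 RPKM, Rps29 at 615 and 675 RPKM, and Rpl10, which is among the last proteins to join the large subunit, at 357 and 502 RPKM.

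Low values often went with a long divisor. The lengths by which the values had been divided ran from 327 to 5134 nucleotides for mRNA and exceeded the longest coding length of 80 of 81 members, with a median ratio of 1.40, so they include untranslated sequence. Rps15a, with a coding length of 390 nucleotides and a divisor of 5134, had only 15.0 to 20.5 RPKM of mRNA and 14.1 to 18.4 RPKM of footprints. Scaled by coding length instead, which treats all reads of a gene as coding, its footprint level in HF stood at the 43.8th rather than the 3.66th percentile of the members, and that of Rps20, with a divisor of 3446, at the 42.5th rather than the 6.10th. Rps27, a small subunit protein with a zinc finger, was lowest on either scale with 28, 32, 21 and 38 RNA-seq reads, while its retrogene copy Rps27rt, which is no member, had 2094, 2427, 3192 and 3495. How reads shared by such copies were assigned is not given in the sources used here, so the split between the copies is uncertain. The same holds for Rpl37 and Rpl37rt, and for Rpl32l and Rps4l, which GENCODE annotates as processed pseudogenes.

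Between the groups, few members passed a test in mRNA. At the study's thresholds (more than 1 on the log2 scale and p under 0.001 before adjustment) 1 of 82 members was higher in HB, against 2.30% of all tested entries, and 0 were lower, against 6.56% of all. At an unadjusted p under 0.05, 10 members were higher (12.2%, against 12.9% of all) and 7 lower (8.54%, against 27.6% of all). At an adjusted p under 0.05 with no fold threshold, 8 members rose, or 9.76% against 7.92% of all entries, and 1 fell, or 1.22% against 19.1% of all. With the fold threshold added there were 5 (5.01% of all entries) and 0 (12.7% of all). The median log2 fold change of the members was 0.06, with 45 above 0 (54.9%, against 39.8% of all entries) and 37 below (45.1%, against 60.2%), where the median of all tested entries was -0.19. The members' median was -0.16 without HB replicate 2, next to -0.15 for all entries, -0.03 without HF replicate 1, and 0.34 without HB replicate 1. Without HF replicate 1 only Rpl41 of the 9 stayed under an adjusted p of 0.05, without HF replicate 2 only Rpl3, Rpl9 and Rps4x did, without HB replicate 1 Rpl4 did not, and with no filter on low values none did (adjusted p from 0.054 to 0.10, with the same fold changes). With a library left out, 1 group has a single library, which is taken to vary like the other group. A lost call then need not show a smaller change, as for Rpl14, whose log2 fold change was -0.96 without HF replicate 1 and -0.95 without HF replicate 2. Other changes did become smaller. That of Rpl4 was 0.62 without HB replicate 1, against 0.93 with all libraries. That of Rpl5 was 0.73 without HF replicate 1, against 0.90.

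The 1 member past the study's thresholds was Rpl9, a large subunit protein near the site where translation factors bind. Its mRNA stood at 90.2 and 104.8 RPKM in HF and at 243 and 233 RPKM in HB. The groups did not overlap, and its log2 fold change was 1.28 (SE 0.26, adjusted p = 0.0090). The fold change was 1.18 without HF replicate 1 and 1.39 without HF replicate 2, and its unadjusted p was then above the study's limit of 0.001 in both. Rpl41 went from 339 and 322 RPKM in HF to 693 and 965 RPKM in HB, with a log2 fold change of 1.30 (SE 0.29, adjusted p = 0.012). Rps4x, the X-linked form of a small subunit protein, went from 88.2 and 121 RPKM to 238 and 216 RPKM, with a log2 fold change of 1.13 (SE 0.27, adjusted p = 0.017). Rpl3, which reaches towards the peptidyl transferase centre, went from 65.6 and 75.1 RPKM to 178 and 128 RPKM, with a log2 fold change of 1.09 (SE 0.27, adjusted p = 0.018). In each of these, both HB libraries lay above both HF libraries.

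The remaining members that rose at an adjusted p under 0.05 were Rplp0, Rps3, Rpl4 and Rpl5. Rplp0 anchors the stalk that recruits elongation factors, and its mRNA went from 148 and 169 RPKM in HF to 302 and 345 RPKM in HB (log2 fold change 1.02, SE 0.26, adjusted p = 0.020). Rps3 lines the entry of the mRNA channel (log2 fold change 0.94, adjusted p = 0.027), Rpl4 lines the exit tunnel (0.93, adjusted p = 0.042), and Rpl5 binds the smallest rRNA and, outside the ribosome, the p53 regulator Mdm2 (0.90, adjusted p = 0.030). The 1 member that fell was Rpl14 of the large subunit, from 487 and 489 RPKM in HF to 237 and 265 RPKM in HB (log2 fold change -0.96, SE 0.26, adjusted p = 0.027). Under a common median its log2 fold change was -0.68 with an adjusted p of 0.10 by limma, so that the call ended. These values came from limma's two-sided test with adjustment over all 10687 entries.

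The other members with the lowest fold changes did not pass in the main comparison, and their HB libraries lay far apart. Rpl38, known for selective translation of Hox mRNAs, stood at 674 and 648 RPKM in HF but at 168 and 496 RPKM in HB (log2 fold change -1.19, SE 0.44, adjusted p = 0.071). Its fold change was -0.41 without HB replicate 1 and -1.97 without HB replicate 2, where it was called, and its limma adjusted p was 0.0033 with the replicate number as a block, 0.016 with the numbers crossed and 0.036 under a common sum of RPKM. Rpl35, which sits at the rim of the exit tunnel, stood at 617 and 635 RPKM in HF and at 280.5 and 419.7 RPKM in HB (log2 fold change -0.87, SE 0.30, adjusted p = 0.055). It passed by limma under a common sum (adjusted p = 0.027), without the variance trend (0.043), with the block (0.029), with voom (0.039) and without HB replicate 2 (0.0057). It did not pass without HB replicate 1 (log2 fold change -0.58, adjusted p = 0.11), under a common median (-0.59, adjusted p = 0.20) or without HF replicate 1 (adjusted p = 0.23) or HF replicate 2 (adjusted p = 0.22). Over the tested members, HB replicate 2 exceeded HB replicate 1 in 70 and was lower in 12, with a median log2 difference of 0.42, against 0.20 between the HF libraries.

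That difference between the HB libraries varied with coding length. In the 27 members with the shortest coding lengths (138 to 399 nucleotides) HB replicate 2 exceeded replicate 1 by a median log2 difference of 0.53, with Rps28 at 201 against 619 RPKM. In the 27 with the longest (582 to 1257 nucleotides) the median was 0.21, and Rpl3 and Rpl4 were lower in replicate 2. Across 80 members with a coding length, which share these libraries, the Pearson correlation of that difference with log2 coding length was -0.57 (Spearman -0.50), and for the HF libraries it was -0.01 (Spearman -0.06). The mRNA log2 fold change between the groups had a correlation with coding length of 0.38 (Spearman 0.40), and its median was -0.00 in the 27 shortest and 0.40 in the 27 longest. Without HB replicate 1 that correlation was 0.19 and without HB replicate 2 it was 0.48. For all 10676 tested entries with a length, the length used was the divisor of the values, not the coding length. The correlation of the HB library difference with its log2 was -0.26 (Spearman -0.25), the same sign as in the members by coding length. That of the fold change was -0.22 (Spearman -0.25), the opposite sign. By the divisor, the fold change of the 82 tested members had a correlation of 0.29 (Spearman 0.31). Of the members that rose, Rpl3, Rpl4, Rpl5, Rplp0, Rps3 and Rps4x were among the 27 longest, Rpl9 was of middle length, and Rpl41 was the shortest of all.

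**Figure D2:**
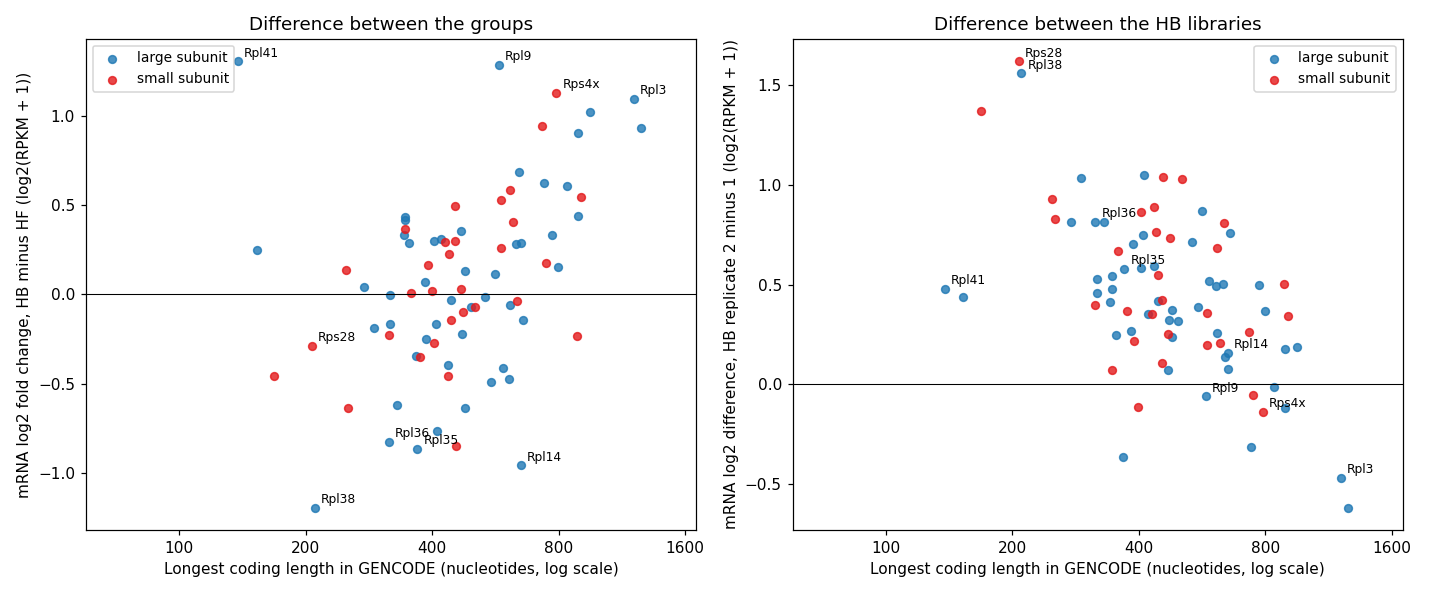
mRNA differences of the 80 tested members with a GENCODE coding length, plotted against that length in nucleotides (log axis), for HB minus HF (left) and for HB replicate 2 minus HB replicate 1 (right), both on the log2(RPKM + 1) scale, with large subunit members in blue and small subunit members in red. The right panel slopes downward (Pearson -0.57), with Rps28 and Rpl38 highest among the short members and Rpl3 among the lowest of the long ones.

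By role, the 3 stalk proteins Rplp0, Rplp1 and Rplp2 had mRNA log2 fold changes of 1.02, 0.33 and 0.43, and only Rplp0 passed an adjusted p of 0.05, as did 7.92% of all entries upward. Of the partners that carry the smallest rRNA, Rpl5 rose, whereas Rpl11 had a log2 fold change of -0.01. Among 8 proteins of the exit tunnel and its rim the fold changes ran from -0.87 (Rpl35) to 0.93 (Rpl4) with a median of -0.32, and 1 passed. Among 5 proteins of the decoding region and mRNA channel they ran from -0.46 to 0.94 (Rps3) with a median of 0.29, and 1 passed. Rps6, the small subunit protein that S6 kinases phosphorylate below mTORC1, had 216, 241, 263 and 253 RPKM (log2 fold change 0.18, adjusted p = 0.64). Rpl10 had a log2 fold change of 0.69 with an adjusted p of 0.10, and Rpsa, also known as the laminin receptor, had -0.23 with an adjusted p of 0.57. Rps27a, made as a fusion with ubiquitin, had 238, 258, 232 and 277 RPKM (log2 fold change 0.03). Of 19 members whose human counterparts are mutated in Diamond-Blackfan anaemia, 6 were above 0 and 13 below with a median of -0.07, and Rpl5 alone passed. Over all entries 60.2% were below 0 and 7.92% passed upward, so the counts below 0 and passing upward lay near the shares of the whole table. Downward 0 of the 19 passed, against 19.1% of all entries and 1.22% of all tested members. Rps19, the gene most often mutated in that disease, had a log2 fold change of -0.04.

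RefSeq promoters on GRCm38.p6 were at hand for 64 of the 85 members. The sequences are shown for the 3 lowest and the 3 highest mRNA fold changes, because the TOP tract lies at the start of the transcript. Each window runs from 10 bases before the annotated start to 20 bases from it, on the strand of the gene, with its longest run of C and T in capitals.
Rpl38 (chr11:114668570-114668599, plus strand): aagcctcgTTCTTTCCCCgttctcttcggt
Rpl14 (chr9:120571507-120571536, plus strand): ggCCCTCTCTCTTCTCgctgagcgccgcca
Rpl35 (chr2:39005112-39005141, minus strand): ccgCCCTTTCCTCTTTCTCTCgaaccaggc
Rpl41 (chr10:128549149-128549178, minus strand): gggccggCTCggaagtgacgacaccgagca
Rpl9 (chr5:65391412-65391441, minus strand): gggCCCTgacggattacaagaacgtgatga
Rps4x (chrX:102189372-102189401, minus strand): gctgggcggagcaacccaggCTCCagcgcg
The 3 low members held runs of 10, 14 and 18 bases that span the annotated start, and the 3 high members held none longer than 4. An annotated start can miss the start used in liver, so a short run says only that these letters are not in this window.

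A run of 8 or more bases that are each C or T, searched on the strand of the gene only, was found in a window of 25 of the 64 members (39.1%), against 3517 of all 27025 symbols with a promoter. Where a symbol had several annotated starts, a run at any of them counted, for members and for all symbols alike, and some members, such as Rps24, counted through 1 of theirs only. The share was 39.0% in the large and 39.1% in the small subunit. The 25 members with such a run were all tested and had mRNA log2 fold changes from -1.19 to 0.53 with a median of -0.07. The 36 tested members without one ranged from -0.46 to 1.30 with a median of 0.18. The run and its length were chosen after values had been seen, and the difference was not tested. In footprints both classes had medians above 0, at 0.07 and 0.16.

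In footprints most members lay above 0 while most of the other entries lay below it, though no member was called after adjustment. The median footprint log2 fold change of the members was 0.13, with 52 above 0 (63.4%) and 30 below (36.6%), where all 11190 tested entries had a median of -0.43, with 29.6% above 0 and 70.4% below. Both HB libraries lay above both HF libraries in 26 of 82 members (31.7%, against 9.07% of all entries) and below them in 11 (13.4%, against 33.2%). The corresponding mRNA counts were 25 above (30.5%, against 24.8%) and 15 below (18.3%, against 43.3%). Scaling each library to a common summed RPKM turned the footprint median of the members to -0.73 and that of all entries to -1.08, so the direction of the members is known only relative to the other entries. It also turned with a single library, to -0.14 without HB replicate 1, and was 0.50 without HB replicate 2. The members lay 0.56 above the median of all entries as deposited, 0.34 above it under the common sum, 0.38 above it without HB replicate 1 and 0.76 above it without HB replicate 2. In HB, 3 footprint reads at 1 kb equal 11.7 and 21.1 RPKM. The median tested entry there lay below that level, at 6.90 and 5.86 RPKM. The members' median lay far above it, at 188 and 136 RPKM. The gap was 0.47 with a mean RPKM of at least 5 or with voom, and 0.72 with a pseudocount of 0.1. The part of depth in this gap was not tested.

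Small subunit members were more often above 0 in footprints than large subunit members, 25 of 32 against 27 of 50, with medians of 0.24 and 0.09. The difference between the medians, large minus small, was -0.15, and it was -0.41 without HB replicate 1, -0.02 without HB replicate 2 and -0.02 without the paralogs. It therefore depended on single libraries and on few genes. In mRNA the difference was -0.03.

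At the study's footprint thresholds (more than 1 on the log2 scale and p under 0.05) 1 member was higher, against 1.58% of all entries, and 1 lower, against 7.86% of all. No entry of the whole table passed an adjusted p of 0.05, while by limma 4 members were higher (4.88%, against 1.72% of all) and 2 lower (2.44%, against 8.31% of all) at an unadjusted p under 0.05. The higher one was Rpl21, a large subunit protein, at 54.2 and 36.2 RPKM in HF and 94.3 and 136.7 RPKM in HB. These values came from 39, 71, 45 and 36 reads, and the log2 fold change was 1.34 (SE 0.37, adjusted p = 0.49). The call ended without HF replicate 2 (log2 fold change 1.05), without HB replicate 2 (1.07) and under the common sum (0.47). Its mRNA was the lower in HB, at 188 and 185 RPKM against 110.1 and 130.0 RPKM (log2 fold change -0.64, adjusted p = 0.091). The member called lower, Rps27, had 1 and 3 footprint reads in HF and 0 in both HB libraries, where 3 reads would amount to 20.3 and 36.8 RPKM. Both groups were at the floor, so no fold is given and a difference was not detectable at this depth.

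The other members at an unadjusted p under 0.05 were Rpl5, Rps13 and Rps27l, which were higher, and Rps28, which was lower, each with an adjusted p of 0.49 by limma and with no overlap between the groups. Rpl5 footprints stood at 100.9 and 100.3 RPKM in HF and 164 and 185 RPKM in HB (log2 fold change 0.79, SE 0.26). Rps27l, the p53-induced paralog of Rps27, stood at 119 and 140.5 RPKM in HF and 246 and 204 RPKM in HB (0.79, SE 0.27). Rps28 stood at 263 and 302 RPKM in HF and 159 and 162 RPKM in HB (fold change on the log2 scale -0.81, SE 0.25). Rpl5 was thus higher in both HB libraries in mRNA and in footprints. Rpl37, of the large subunit, had a footprint log2 fold change of 1.12 on 10, 5, 8 and 3 reads (SE 0.82).

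**Figure D3:**
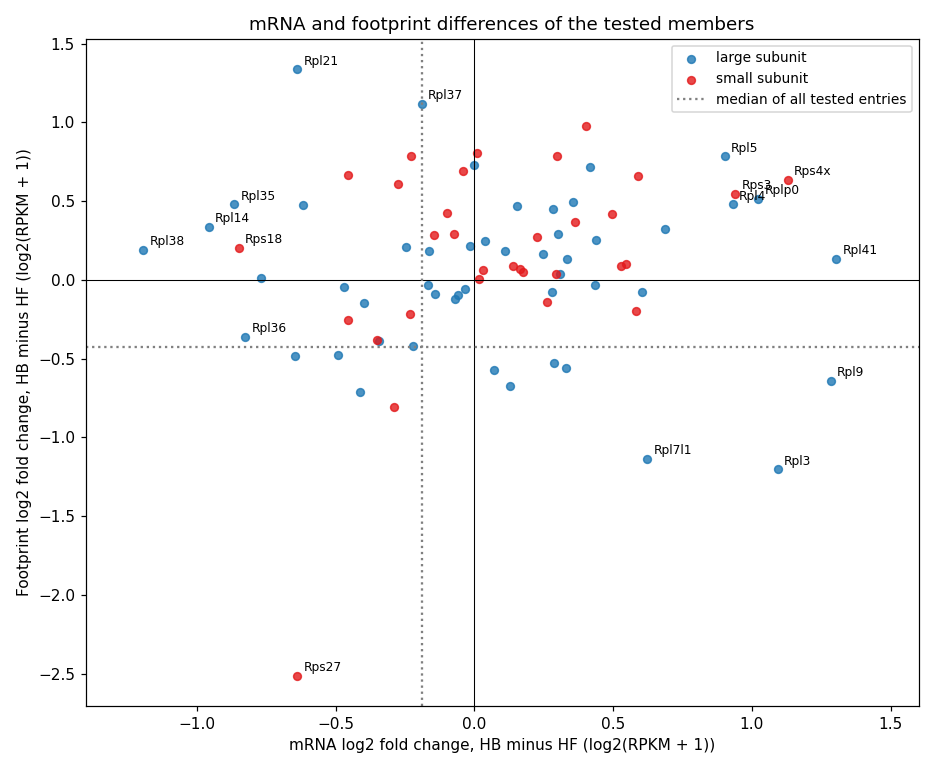
Log2 fold change of footprints against that of mRNA, HB minus HF, for the 82 tested members, with large subunit members in blue, small subunit members in red and dotted lines at the medians of all tested entries (-0.19 for mRNA and -0.43 for footprints). Rpl9, Rpl3 and Rpl7l1 lie at lower right, Rpl21 at upper left, and Rps27, which rests on 4 footprint reads in all, at the bottom.

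The mRNA and footprint fold changes of the members went together only weakly, with a Pearson correlation of 0.08 and a Spearman correlation of 0.14 across 82 genes. The levels went together more closely, with Pearson correlations of log2 values between 0.67 and 0.83 and Spearman correlations between 0.41 and 0.54 in the 4 pairs of libraries.

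TE, the footprint RPKM over the mRNA RPKM of the libraries with the same group and number, was low for these genes. The median member TE was 0.538 and 0.437 in HF and 0.710 and 0.352 in HB. The median of all 9455 tested entries was 1.07 and 1.02 in HF and 0.877 and 0.739 in HB. In HF 69 of the 82 members lay below the median of all entries, and the members' median was at the 23.3rd percentile. In HB 67 did, and the median was at the 28.0th percentile. These counts and percentiles rank the mean TE of the 2 pairs of a group. Within single pairs the members' median stood at the 27.5th and 23.1st percentile in HF. In HB it stood at the 40.4th and 33.2nd. The 18 other TOP mRNAs that were examined, among them elongation factors and Tpt1, had a median TE of 1.31 in HF and 0.970 in HB, with 6 of the 18 below the median of all entries in HF, so the median of that list was not low although single genes such as Tpt1 (0.586 and 0.577 in HF) were. Large and small subunit members had median TEs of 0.463 and 0.539 in HF and of 0.469 and 0.596 in HB.

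Within the members, TE in HF spanned from 0.0426 for Rpl36 to 4.73 for Rpl32l. Rpl36 had the second highest mRNA level yet only 7, 30, 11 and 1 footprint reads. Rpl11 (0.0980 and 0.115 in HF), Rpl28 (0.151 and 0.103) and Rpl37 (0.227 and 0.0407) were the next lowest. The footprint values of Rpl11 had been divided by 1210 nucleotides and its mRNA values by 594, and with the mRNA length for both its TE would be 0.200 and 0.234. Such a difference in length was present in 17 of 82 members, and exceeded 1.5-fold in Rpl11 and Rps24. At the other end, Rpl9 had a TE of 3.74 and 3.18 in HF, Rpl41 of 2.37 and 1.77 and Rpl3 of 1.68 and 1.87. Rpl32l, annotated as a pseudogene of Rpl32, had 5.23 and 4.24, on 12 and 28 footprint reads and 69 and 74 mRNA reads.

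**Figure D4:**
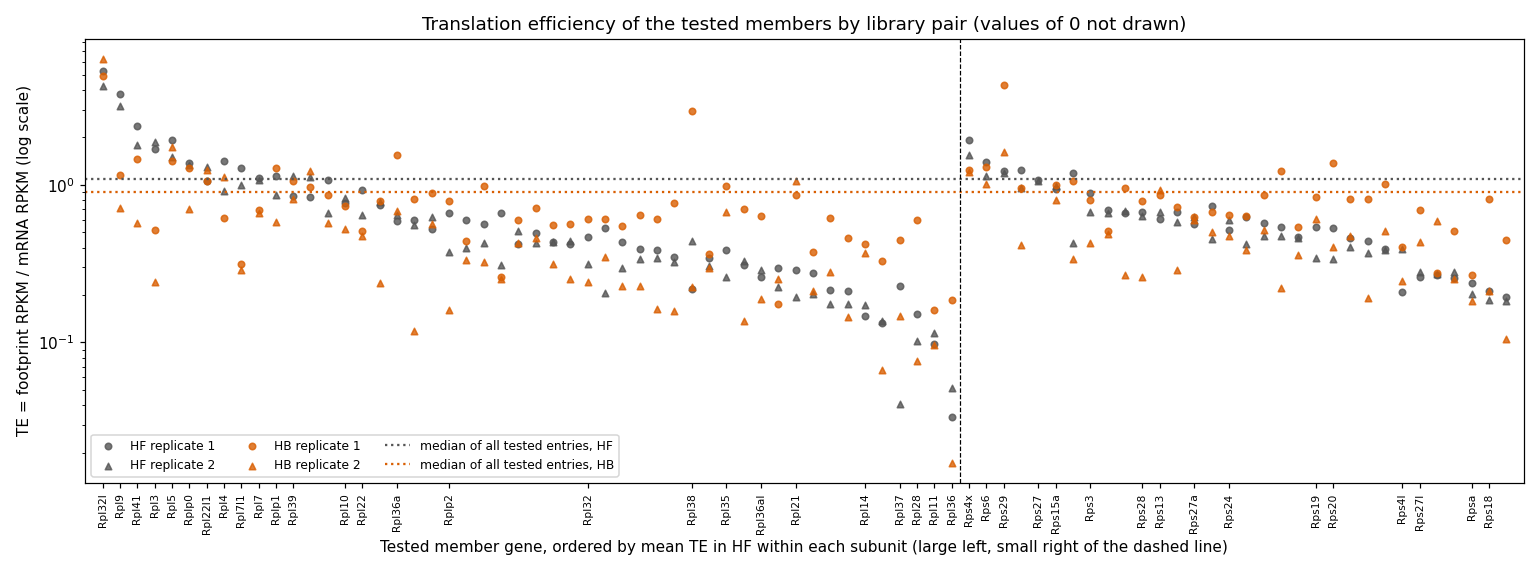
Translation efficiency (footprint RPKM over mRNA RPKM, log axis) of the 82 tested members in each pair of libraries, with symbols by group and replicate, labels for members described in the text and dotted lines at the medians of all tested entries (1.09 in HF and 0.899 in HB). Most members lie below both lines, HB replicate 1 is often the highest point and HB replicate 2 the lowest, and the HB values of Rps27, which are 0, are not drawn.

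Between the groups the median TE log2 fold change of the members was -0.00, with 41 above 0 and 41 below, against -0.35 for all entries, of which 36.8% were above and 63.2% below. The HB pairs disagreed, with a median of -0.43 without HB replicate 1 (-0.40 for all entries) and 0.42 without HB replicate 2 (-0.23 for all entries). The members thus lay 0.35 above the median of all entries as deposited, -0.02 from it without HB replicate 1, 0.65 above it without HB replicate 2 and 0.09 above it under the common sum. With voom on recovered reads the members' median was 0.29 and that of all entries 0.05, so that the direction of all entries turned. At the study's thresholds (more than 2 on the log2 scale and p under 0.05) 0 members were higher, against 1.49% of all entries, and 1 was lower, against 4.60% of all. By the limma test no entry passed an adjusted p of 0.05, and at an unadjusted p under 0.05 there were 1 higher (2.83% of all entries) and 4 lower members (9.37% of all). Both HB pairs lay above both HF pairs in 12 members (14.6%, against 13.2% of all entries) and below them in 12 (14.6%, against 31.9%).

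The member called lower in TE was Rpl3, with a TE of 1.68 and 1.87 in HF and 0.515 and 0.243 in HB (log2 fold change -2.29, SE 0.64, adjusted p = 0.33). Its mRNA was higher in HB, as given above, while its footprints stood at 110 and 140.5 RPKM in HF and 91.5 and 31.1 RPKM in HB, the last on 6 reads. The call ended without HF replicate 1 (log2 fold change -2.37), without HF replicate 2 (-2.21) and without HB replicate 2 (-1.76), though only in the last did the fold change become smaller than the threshold. Rpl9 followed, with a TE of 3.74 and 3.18 in HF and 1.15 and 0.709 in HB (log2 fold change -1.92, SE 0.51, adjusted p = 0.33). Its footprints stood at 338 and 333 RPKM in HF and at 279 and 165 RPKM in HB. Rpl7l1, a paralog of Rpl7 that acts in large subunit assembly, had a TE of 1.29 and 0.995 in HF and 0.314 and 0.286 in HB (log2 fold change -1.76, SE 0.62, adjusted p = 0.38), with 5 and 2 footprint reads in HB. Rpl21 went the opposite way, from 0.288 and 0.196 in HF to 0.857 and 1.05 in HB (log2 fold change 1.98, SE 0.68, adjusted p = 0.37).

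Rpl3, Rpl9, Rpl7l1 and Rpl21 had TE fold changes more than 3 scaled median absolute deviations from the members' median of -0.00, leaving aside Rps27, whose footprints were at the floor. In footprints and in mRNA no member above the floor lay that far out. Rpl38 had a TE log2 fold change of 1.38 with an SE of 1.27, since its 4 TEs were 0.217, 0.443, 2.93 and 0.224. Rpl35 had 0.388 and 0.261 in HF and 0.982 and 0.669 in HB (log2 fold change 1.35, SE 0.68, adjusted p = 0.48).

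Paralogs and their partners stood at different levels. Rpl22l1 had 29.8 and 38.7 RPKM of mRNA in HF against 53.2 and 56.3 RPKM for Rpl22, and neither differed between the groups beyond its spread (log2 fold changes -0.34 and 0.07). Rpl36al exceeded Rpl36a in HF, at 443 and 524 RPKM against 206 and 255 RPKM, and in HB, at 367 and 504 RPKM against 191 and 275 RPKM. Rpl7l1 stood at 12.3 and 14.6 RPKM in HF and 23.7 and 18.9 RPKM in HB, far below Rpl7 at 187 and 253 RPKM in HF and 333 and 330 RPKM in HB. Their log2 fold changes were 0.62 and 0.60, with adjusted p-values of 0.097 and 0.13. Rps4l stood at 26.1, 15.5, 30.8 and 30.7 RPKM, a level close to the floor in footprints at 2, 6, 3 and 1 reads. Rpl39 had 175, 232, 205 and 279 RPKM of mRNA, against 0 for Rpl39l.

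Genes around the ribosome gave further context in mRNA, at the study's thresholds, by which 2.30% of all entries were higher and 6.56% lower. Rps3a1, a small subunit protein whose symbol lies outside the rule, stood at 138 and 196 RPKM in HF and 313 and 289 RPKM in HB (log2 fold change 0.87, adjusted p = 0.046) and was not called. Of 18 other TOP mRNAs 0 were called, with a median of 0.08, and Eef2, the translocation factor, had 1.17 with an adjusted p of 0.013. Of 90 ribosome biogenesis factors 1 was higher and 4 were lower, with a median of -0.34. The higher one was Eif6, which keeps free large subunits from joining small ones, at 13.2 and 13.3 RPKM in HF and 41.5 and 35.5 RPKM in HB. The lower ones were Nop56 (log2 fold change -1.80), Utp14a (-1.48), Ftsj3 (-1.20) and Riok1 (-1.33), which act in rRNA modification and subunit maturation. Of 20 genes of RNA polymerase I and its cofactors 0 were higher and 2 lower, Taf1c (-1.32) and Ttf1 (-1.39), with a median of -0.60. Of 20 genes of mTORC1 and TOP regulation 1 was higher, the translational repressor Eif4ebp2 (1.91), and 1 lower, the S6 kinase gene Rps6kb2 (-1.37), with a median of -0.18. The median of all entries was -0.19.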

How the data were processed

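Liver RNA-seq (polyadenylated mRNA) and Ribo-seq (cycloheximide, RNase I, rRNA depletion) gave 8 libraries. The authors mapped reads to mm10 with FANSe2, and the submitters' processing notes name edgeR. They deposited RPKM per gene and library, and how shared reads were counted is not given in the sources used here. Library totals and whole reads were recovered from the RPKM steps (whole for 99.92% of values above 0 in RNA-seq and 99.99% in Ribo-seq); they served depth, floors (3 reads) and one alternative. A count model was not the main test since the values are RPKM. Entries with a mean RPKM of at least 1 entered a two-sided moderated test on log2(RPKM + 1) with group as the only factor (limma 3.58.1 under R 4.3.3, eBayes with trend), and fold changes are on that scale, which understates low genes. TE was tested as log2((RPF + 1)/(mRNA + 1)). P-values were adjusted by Benjamini-Hochberg over all tested entries, and the scripts were tested on simulated data. Printed TE levels are plain ratios. Tables and figures used Python 3.11.15, and coordinates and coding lengths came from GENCODE M21. RNA-seq entries whose symbol occurred more than once (4) were not used.

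Named members were those called, the 3 highest and 3 lowest fold changes per measure, the 4 highest and 4 lowest levels and TEs in HF, those beyond 3 scaled median absolute deviations, and a list of structural, signalling and paralog genes. Others named (Rps3, Rpl4, Rps20, Rps24, Rps13, Rps28) were chosen after their values were seen, and some genes under the rule are not reported here. The members and lists were chosen with earlier results of these data known. TE used the RNA-seq and Ribo-seq libraries of the same group and number, although their deviations had correlations of only -0.002 in HF and -0.077 in HB. Same-numbered HF and HB libraries were not treated as pairs, since no label ties them.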

Additional observations from a re-analysis of the deposited data

How the results depend on the processing

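The study's thresholds called few members, so their counts moved easily. In mRNA, with 1 higher and 0 lower, the counts became 5 and 0 by adjusted p with the fold threshold and 8 and 1 without it. Higher calls numbered 0 with no filter on low values, 2 under a common sum, without the variance trend or with voom on recovered reads, and 4 under a common median, which moved the median of all entries from -0.19 to 0.08 and that of the members from 0.06 to 0.33. In footprints, with 1 and 1, both counts were 0 by adjusted p, lower calls were 0 at a mean RPKM of at least 5, the common sum gave 0 and 11, the common median 8 higher, and voom 2 higher. In TE, with 0 and 1, lower calls were 0 by adjusted p, 2 with a pseudocount of 0.1 and 4 under the common sum, and higher calls were 1 under the common median and with voom.

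The common sum moved the members' median log2 fold change to -0.73 in footprints and -0.82 in TE, and the median TE in HF from 0.497 to 0.275. The common median moved the footprint value to 0.46. The footprint share of summed RPKM, HB over HF, was -0.57 on the log2 scale and 0.052 without small RNA entries.

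Leaving out one library at a time leaves 1 library in a group, which is assumed to vary like those of the other, and gave 0 to 3 higher and 0 to 6 lower mRNA calls (6 without HB replicate 2), 2 to 3 higher and 1 to 10 lower footprint calls (10 without HB replicate 1), and 0 to 3 higher and 0 to 4 lower TE calls. The footprint median ranged from -0.14 to 0.50, the large minus small subunit difference in footprints from -0.41 to -0.019, and the log2 share ratio from -0.25 to 0.10 in mRNA and from -1.21 to -0.13 in footprints.

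With the replicate number as a block, mRNA calls were 4 higher and 1 lower (Rpl38) and footprint calls lower were 2. The numbers do not pair the samples by any label, and deviations of same-numbered HF and HB libraries had correlations of -0.10 in RNA-seq and -0.01 in Ribo-seq. With the numbers crossed, an alternative added after seeing the data, 2 members were called lower in footprints.

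Among the members whose own fold changes were recomputed (chiefly those with extreme values), those that turned sign were Rpl37 in footprints without HF replicate 2 (-0.0059, against 1.12, with 2.24 without HF replicate 1), Rpl38 in TE without HB replicate 1 (-0.46, against 1.38, with 3.23 without HB replicate 2) and, with no meaning at 0 footprint reads in HB, the fitted value of Rps27 in TE with voom (0.65). The causes were not tested. Footprint depth limits members with few reads, since 5, 4, 5 and 10 of the 85 members had 3 reads or fewer in the libraries. These counts include the 3 untested paralogs, which had no footprint reads.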
